A study of Homo sapiens with 45 samples.

Results

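Genes of 9 solute carriers that bring amino acids into cells were followed through palbociclib (PB) treatment of neuroblastoma cells: *SLC7A5*, *SLC3A2*, *SLC43A1*, *SLC1A5*, *SLC1A4*, *SLC7A11*, *SLC7A1*, *SLC38A1* and *SLC38A2*. They were picked by name. No measured value enters that rule, but the choice was made with earlier results of these data known. They are 9 of the 29159 genes in the count tables. All 9 had enough reads to be tested in every line. RNA came from 3 established ADRN-type lines, each a single line grown in serum-containing medium with L-glutamine. *MYCN* is amplified in IMR-32 and SK-N-BE(2)C, whereas SH-SY5Y lacks this and carries mutant *ALK*. Each line was sampled as control (the labels give no vehicle), after 24 h of 1 μM PB, and after 7 days (SK-N-BE(2)C) or 5 days (IMR-32 and SH-SY5Y) of 1 μM PB, with 5 biological replicates per group and 45 libraries in all. Per the methods, each replicate was a separate passage of its line, set up as an experiment of its own. Control and 24 h cells were harvested together, which means that cells of the longer treatment had also spent more days in culture than their controls, and 7 against 5 days cannot be told apart from the line.

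PB inhibits CDK4 and CDK6, the kinases that open the way from G1 into S phase by phosphorylating RB. Amino acid uptake is tied to growth, because leucine and other essential amino acids both build protein and switch on the kinase complex mTORC1. The leucine importer of growing cells is a pair: SLC7A5 (LAT1) is the transporting chain and SLC3A2 (CD98, 4F2hc) is the glycoprotein that carries it to the surface. SLC3A2 also carries SLC7A11 (xCT), which exchanges glutamate for cystine, the source of cysteine for glutathione. SLC43A1 (LAT3) moves leucine without a partner chain. SLC1A5 (ASCT2) and SLC1A4 (ASCT1) exchange small neutral amino acids, with glutamine a substrate of the former and serine and alanine of the latter. SLC7A1 (CAT1) imports arginine and lysine, and SLC38A1 and SLC38A2 (SNAT1 and SNAT2) take up glutamine and alanine together with sodium. Several of these genes are known targets of MYC proteins or of ATF4, the transcription factor of the amino acid response.

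Counts are given as CPM, a gene's count scaled to the library's total. Libraries held 13459219 to 25441812 counts (median 18494528). Changes are log2 fold changes ± standard error (SE) from edgeR's quasi-likelihood F test, and adjusted p-values are Benjamini-Hochberg values over all genes tested in the line. Called means that the adjusted p was under 0.05 with a log2 fold change past 0.5 in either direction. Of the 11 adrenergic markers looked up, all were detected in every line, but *TH*, the first enzyme of catecholamine synthesis, stayed under 1 CPM in SH-SY5Y (at most 0.873 CPM). Since these are bulk libraries, fewer cells that use a gene and less of its RNA per cell cannot be told apart. Some libraries stood apart. In IMR-32, replicate 5 held a summed 1223 CPM of 12 mesenchymal markers in the control and 1018 CPM at 24 h, against 654 to 729 CPM and 566 to 649 CPM in the other replicates. In SK-N-BE(2)C, replicates 1 and 2 differed from replicates 3, 4 and 5, with mesenchymal sums of 660.1 and 631 CPM against 823 to 858 CPM in controls and 548 and 543 CPM against 771 to 775 CPM at 24 h. At 7 days replicate 1 (405 CPM) was lowest, whereas replicate 2 (626 CPM) lay within the 506 to 713 CPM of replicates 3, 4 and 5. The part these differences play in the results was not tested.

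Promoter sequence was read from RefSeq (GRCh38.p14), which had an entry for 8 of the 9 genes. *SLC7A11* had none. The 3 windows of 250 bases ending at the base before the transcript start that are shown run 5′ to 3′ on the strand of the gene. They were chosen because *SLC7A5* and *SLC43A1* hold the E-box CACGTG (capitals), the motif bound by MYC proteins, and *SLC1A4*, which fell at 24 h in all 3 lines, holds no motif that was searched.
SLC7A5 (chr16:87869508-87869757, minus strand): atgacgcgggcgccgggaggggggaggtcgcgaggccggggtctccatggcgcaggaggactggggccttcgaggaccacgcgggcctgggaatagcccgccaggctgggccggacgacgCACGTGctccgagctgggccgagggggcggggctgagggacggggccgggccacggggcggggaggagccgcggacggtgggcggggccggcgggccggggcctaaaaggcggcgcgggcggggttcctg
SLC43A1 (chr11:57515703-57515952, minus strand): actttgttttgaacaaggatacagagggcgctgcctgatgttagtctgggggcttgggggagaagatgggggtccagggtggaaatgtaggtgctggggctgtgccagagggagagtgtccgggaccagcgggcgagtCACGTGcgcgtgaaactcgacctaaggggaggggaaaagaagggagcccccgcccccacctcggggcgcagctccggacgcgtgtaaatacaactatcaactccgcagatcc
SLC1A4 (chr2:64989149-64989398, plus strand): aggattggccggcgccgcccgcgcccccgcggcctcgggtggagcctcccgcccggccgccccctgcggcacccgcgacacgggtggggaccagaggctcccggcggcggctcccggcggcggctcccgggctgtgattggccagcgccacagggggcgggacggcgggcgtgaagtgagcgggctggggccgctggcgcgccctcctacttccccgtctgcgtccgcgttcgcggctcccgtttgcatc
The E-box lay 130 bases before the start of *SLC7A5* and 112 bases before that of *SLC43A1*, and 6.34% of 35116 RefSeq promoters of this length hold one. Both strands were searched, and the motif reads the same on each. The amino acid response element TGATGNAA (3.14% of promoters) and the E2F sites TTTGGCGC (0.550%) and TTTCCCGC (1.39%) were absent from the windows at the main start of every gene with an entry there. The antioxidant response element TGACNNNGC (10.9%) was present once at *SLC7A1*, 85 bases before the start, and once at another start of *SLC3A2*, 37 bases before it. Other starts of *SLC1A5* held an E-box 50 bases and TGACNNNGC 111 bases upstream in one window and TGATGNAA 97 bases upstream in another. A match describes these letters and not a bound site.

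Per kilobase of transcript, the scale on which levels of different genes were compared, the control libraries ordered the carriers differently in each line. *SLC7A5* led in SK-N-BE(2)C with 132 ± 10.0 CPM per kb (mean ± SD, n = 5), its range overlapping that of the next gene, *SLC1A5* (128 ± 5.35 CPM per kb). *SLC38A1* led in IMR-32 with 109 ± 10.2 CPM per kb and *SLC1A5* in SH-SY5Y with 87.6 ± 3.09 CPM per kb, each above the next gene in every library. *SLC43A1*, *SLC1A4* and *SLC7A11* took the last 3 places in all lines. *SLC7A11* lay lowest in IMR-32 and SH-SY5Y (0.392 ± 0.411 and 0.601 ± 0.102 CPM per kb), while in SK-N-BE(2)C its 2.57 ± 0.492 CPM per kb overlapped *SLC43A1* (2.12 ± 0.294 CPM per kb), which in turn overlapped *SLC1A4* (2.11 ± 0.363 CPM per kb). For the 2 chains of the leucine importer, *SLC7A5* per kb of canonical transcript was 1.36 ± 0.0742 times *SLC3A2* in SK-N-BE(2)C controls, 0.680 ± 0.0819 times in IMR-32 and 0.792 ± 0.0635 times in SH-SY5Y. Which chain stands above the other, and the place of *SLC3A2* in the order, rest on the length chosen. The canonical transcript of *SLC3A2* has 1885 bases and its merged exons 6392, against 4556 and 4764 for *SLC7A5*. The isoforms present were not tested.

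**Figure D1:**
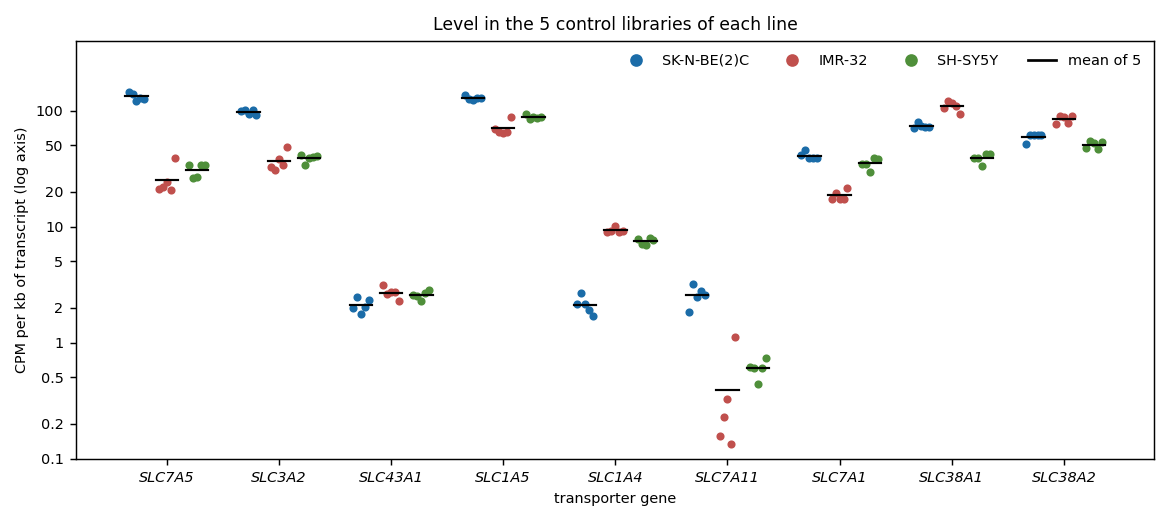
CPM per kb of canonical transcript (log axis) of the 9 transporter genes in the 5 control libraries of each line, with black bars for the means. *SLC7A5*, *SLC3A2*, *SLC1A5*, *SLC7A11* and *SLC7A1* sit highest in SK-N-BE(2)C and *SLC1A4* lowest there, and 1 IMR-32 library (replicate 5) lies above the other 4 for *SLC7A5* and *SLC7A11*.

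Without PB, 7 of 9 were called when SK-N-BE(2)C was compared with IMR-32, as were 6 of 9 when it was compared with SH-SY5Y, where 62.1% and 57.5% of the 16282 genes tested over all lines were called. Against IMR-32, 5 were called higher (30.8% of all genes) and 2 lower (31.3%). Against SH-SY5Y, 5 were called higher (27.9%) and 1 lower (29.7%). *SLC7A5* was higher than in IMR-32 by 2.40 ± 0.16 log2 units (adjusted p = 1.1e-16) and than in SH-SY5Y by 2.30 ± 0.16 (5.2e-16), and *SLC3A2* by 1.42 ± 0.09 (8.3e-18) and 1.53 ± 0.09 (1.4e-18). *SLC7A11* was higher by 2.76 ± 0.40 (6.2e-08) and 2.30 ± 0.38 (1.3e-06). *SLC1A5* was higher by 0.88 ± 0.14 (4.6e-07) and 0.75 ± 0.14 (9.7e-06). *SLC1A4* went the other way, lower by a log2 difference of −2.12 ± 0.15 (5.2e-16) and −1.62 ± 0.15 (1.6e-12). *SLC7A1* was higher than in IMR-32 by 1.15 ± 0.09 (1.0e-14), and *SLC38A1* was higher than in SH-SY5Y by 1.12 ± 0.08 (7.9e-16) but lower than in IMR-32, at −0.55 ± 0.08 (8.6e-08). *SLC38A2* was also lower than in IMR-32 in every library, at −0.49 ± 0.08 (adjusted p = 1.1e-06), just inside the fold limit. It was called with DESeq2 and with its size factors (both −0.54) and with scaling by library size alone (−0.51). It was also called with any of 10 of the 15 replicates of the lines left out (−0.50 to −0.53), those of SH-SY5Y among them. A replicate was left out here with its libraries of all groups. IMR-32 and SH-SY5Y differed at 3 of 9 (54.2% of genes were called): IMR-32 held more *SLC38A1* (1.66 ± 0.08, adjusted p = 2.6e-21) and *SLC38A2* (0.92 ± 0.08, 4.0e-13) and less *SLC7A1* (−0.74 ± 0.09, 2.6e-09). *SLC1A4* was also higher in every IMR-32 library, at 0.49 ± 0.15 (adjusted p = 0.0026), just inside the fold limit. It reached 0.50 and was called with DESeq2 and with its size factors, was called with any of 4 replicates left out (0.50 to 0.52), and stood at 0.31 (0.052) with scaling by library size alone. For *SLC7A5*, *SLC3A2*, *SLC1A5* and *SLC7A11* these 2 lines overlapped. Without IMR-32 replicate 5, *SLC7A11* was called lower in IMR-32 than in SH-SY5Y (−1.36 ± 0.32, adjusted p = 2.3e-04) where the full set gave −0.46 ± 0.40 (0.30).

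After 24 h of PB, *SLC1A5*, *SLC1A4* and *SLC7A11* were called lower in all 3 lines, the *SLC7A11* call in SH-SY5Y being at the limit (adjusted p = 0.041, and 0.083 with no filter on low counts), and none of the 9 was called higher in any. Of the 12556 genes tested in all lines, 5.81% were called lower in every one. The calls were 3 of 9 for SK-N-BE(2)C (10.6% of its 14055 tested genes were called lower), 5 of 9 for IMR-32 (10.5% of 14293) and 3 of 9 for SH-SY5Y (11% of 14547). The genes called higher, none of them among the 9, made up 10.9%, 7.87% and 10.5% of those tested. The additional calls in IMR-32 were *SLC7A5* and *SLC7A1*. The median log2 fold change of the 9 was −0.34, −0.70 and −0.34, where that of all genes tested was 0.02, 0.06 and 0.04. *SLC38A1* and *SLC38A2* had log2 fold changes between −0.32 and 0.03 at this time.

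After the longer treatment the lines parted. Those called lower were 4 of 9 for SK-N-BE(2)C (22.3% of genes tested), 2 of 9 for IMR-32 (15.5%) and 5 of 9 for SH-SY5Y (17.3%), and again none was called higher (24.5%, 16.6% and 18.6% of genes were). *SLC1A5* was the 1 gene of the 9 called lower in all 3 lines at this time (6.5% of the genes tested in all lines were). *SLC7A5* and *SLC1A4* were called lower in SH-SY5Y and SK-N-BE(2)C, *SLC3A2* in SK-N-BE(2)C, *SLC7A11* and *SLC7A1* in SH-SY5Y and *SLC43A1* in IMR-32. The *SLC7A11* call was again at the limit (adjusted p = 0.047, and 0.097 with no filter). Between 24 h and the longer time, 2 of the 9 fell and 3 rose in SK-N-BE(2)C (14.4% and 17.5% of genes tested), 4 rose in IMR-32 (10.8%) and 1 fell in SH-SY5Y (6.23%). Each line's 2 comparisons with control share the same control libraries.

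**Figure D2:**
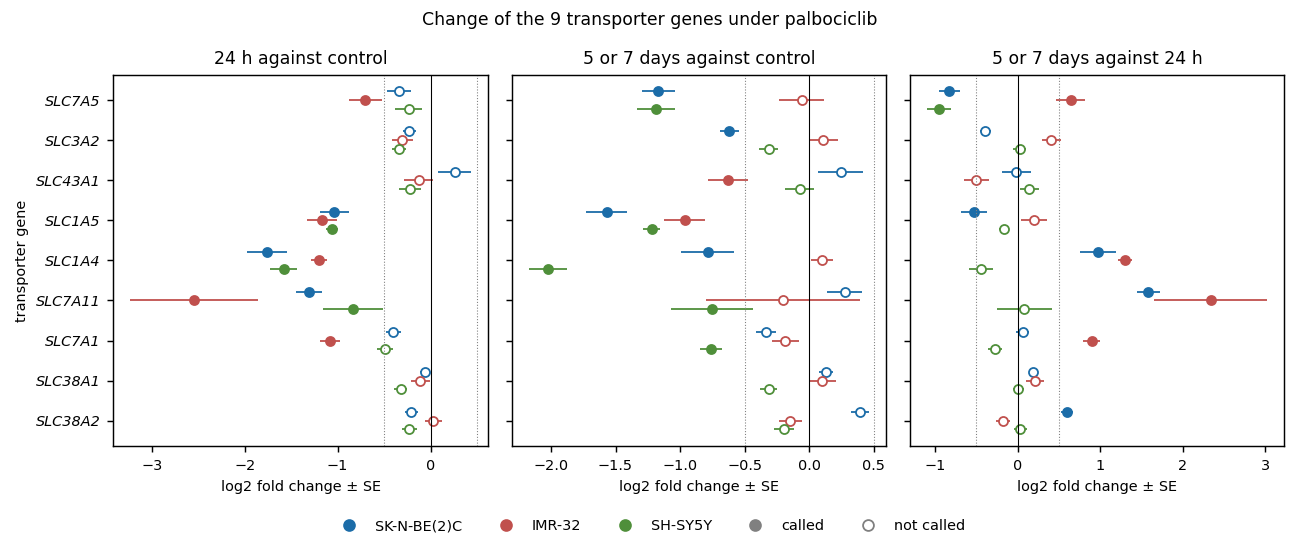
Log2 fold change ± SE (x axis) of each transporter gene in each line for 24 h against control, the longer treatment against control and the longer treatment against 24 h, with filled points for called genes and dotted lines at the limits of 0.5 and −0.5. *SLC1A5* is filled in all lines in the first 2 panels, whereas *SLC1A4* in IMR-32 goes from −1.20 at 24 h to 0.10 at 5 days.

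*SLC7A5*, the transporting chain of LAT1 (GRCh37 chr16:87863629-87903113, minus strand), was called lower at the longer time in SH-SY5Y and SK-N-BE(2)C and at 24 h in IMR-32. SK-N-BE(2)C controls held 661, 639, 552, 588 and 574 CPM (replicates 1 to 5), the 24 h libraries 565, 554, 431, 438 and 446 CPM, and the 7 day libraries 348, 201, 267, 292 and 269 CPM. Every 7 day library lay below every other library of the line, whereas controls and 24 h overlapped. The log2 fold change was −0.34 ± 0.13 at 24 h (adjusted p = 0.037, short of the fold limit) and −1.17 ± 0.13 at 7 days (6.0e-07). In SH-SY5Y the controls held 155, 119, 123, 154 and 153 CPM, the 24 h libraries 129.8, 109, 102, 128 and 135 CPM, and the 5 day libraries 49.8, 49.7, 65.2, 78.8 and 80.5 CPM. Again the late libraries stood alone at the bottom, with −0.23 ± 0.14 at 24 h (adjusted p = 0.19) and −1.19 ± 0.15 at 5 days (3.4e-06). IMR-32 took another course. Its controls held 95.4, 99.3, 110.2, 94.8 and 179 CPM, its 24 h libraries 64.5, 55.4, 67.5, 65.5 and 93.9 CPM, and its 5 day libraries 113, 100.0, 123, 100.4 and 125 CPM. All 24 h libraries lay below all controls and all 5 day libraries, with −0.70 ± 0.18 at 24 h (adjusted p = 0.0066) and −0.06 ± 0.18 at 5 days (0.80). Without control replicate 5 the 24 h value was −0.48 ± 0.12 (adjusted p = 0.0076), under the fold limit, and without replicate 5 in all 3 groups it was −0.61 ± 0.08 (3.0e-05). Compared by replicate number, all 5 libraries were lower at 24 h in the other two lines as well, with log2 ratios of −0.20 to −0.42 in SK-N-BE(2)C and −0.13 to −0.28 in SH-SY5Y, and the 24 h response of IMR-32 did not differ from theirs past the threshold (adjusted p = 0.37 and 0.23). Of 4457 stretches of 100 bases in the *SLC7A5* transcript, 81 (1.82%) also occur in the pseudogene *SLC7A5P2*, and a transcript on the opposite strand covers 271 exon bases (5.69%).

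*SLC3A2* (chr11:62623476-62656352, plus strand), the chain shared by LAT1 and xCT, was called once against control, in SK-N-BE(2)C at 7 days. SK-N-BE(2)C libraries held 188, 189.9, 178, 189.9 and 174 CPM in controls, 176, 176, 150.1, 148 and 152 CPM at 24 h and 133, 108, 131, 123 and 121 CPM at 7 days. The 7 day libraries lay below all others, a change of −0.62 ± 0.07 against control (adjusted p = 1.0e-06) after −0.23 ± 0.07 at 24 h (0.015). In IMR-32 it ranged over 58.4 to 91.3 CPM in controls, 49.96 to 61.4 CPM at 24 h and 68.7 to 79.6 CPM at 5 days, with −0.30 ± 0.12 (adjusted p = 0.054) and 0.11 ± 0.11 (0.45) against control. SH-SY5Y gave −0.34 ± 0.07 (adjusted p = 0.0011) and −0.31 ± 0.07 (0.0012), inside the fold limit. Per kb, the ratio of *SLC7A5* to *SLC3A2* went from 1.36 ± 0.0742 in controls to 0.919 ± 0.121 at 7 days in SK-N-BE(2)C and from 0.792 ± 0.0635 to 0.440 ± 0.129 at 5 days in SH-SY5Y, with no overlap in either line. In IMR-32 the ratio was 0.680 ± 0.0819, then 0.524 ± 0.0851 at 24 h and 0.612 ± 0.0357 at 5 days, and the control and 5 day ranges overlapped.

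*SLC43A1* (chr11:57252007-57283253, minus strand), which carries leucine without SLC3A2, was low throughout and was called once against control. In IMR-32 the controls held 7.83, 6.56, 6.91, 6.85 and 5.75 CPM and the 5 day libraries 3.61, 4.69, 4.41, 4.66 and 4.76 CPM. The 2 groups did not overlap, and the change was −0.63 ± 0.16 (adjusted p = 0.0035). At 24 h the IMR-32 libraries held 4.91 to 7.91 CPM, a change of −0.13 ± 0.15 (adjusted p = 0.56). The 7 day libraries of SK-N-BE(2)C spread over 3.91 to 8.39 CPM around the controls (4.39 to 6.23 CPM), and the 5 day libraries of SH-SY5Y spread over 5.47 to 7.13 CPM around 5.79 to 7.19 CPM. The gene had 62 to 191 counts a library over all 9 groups.

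**Figure D3:**
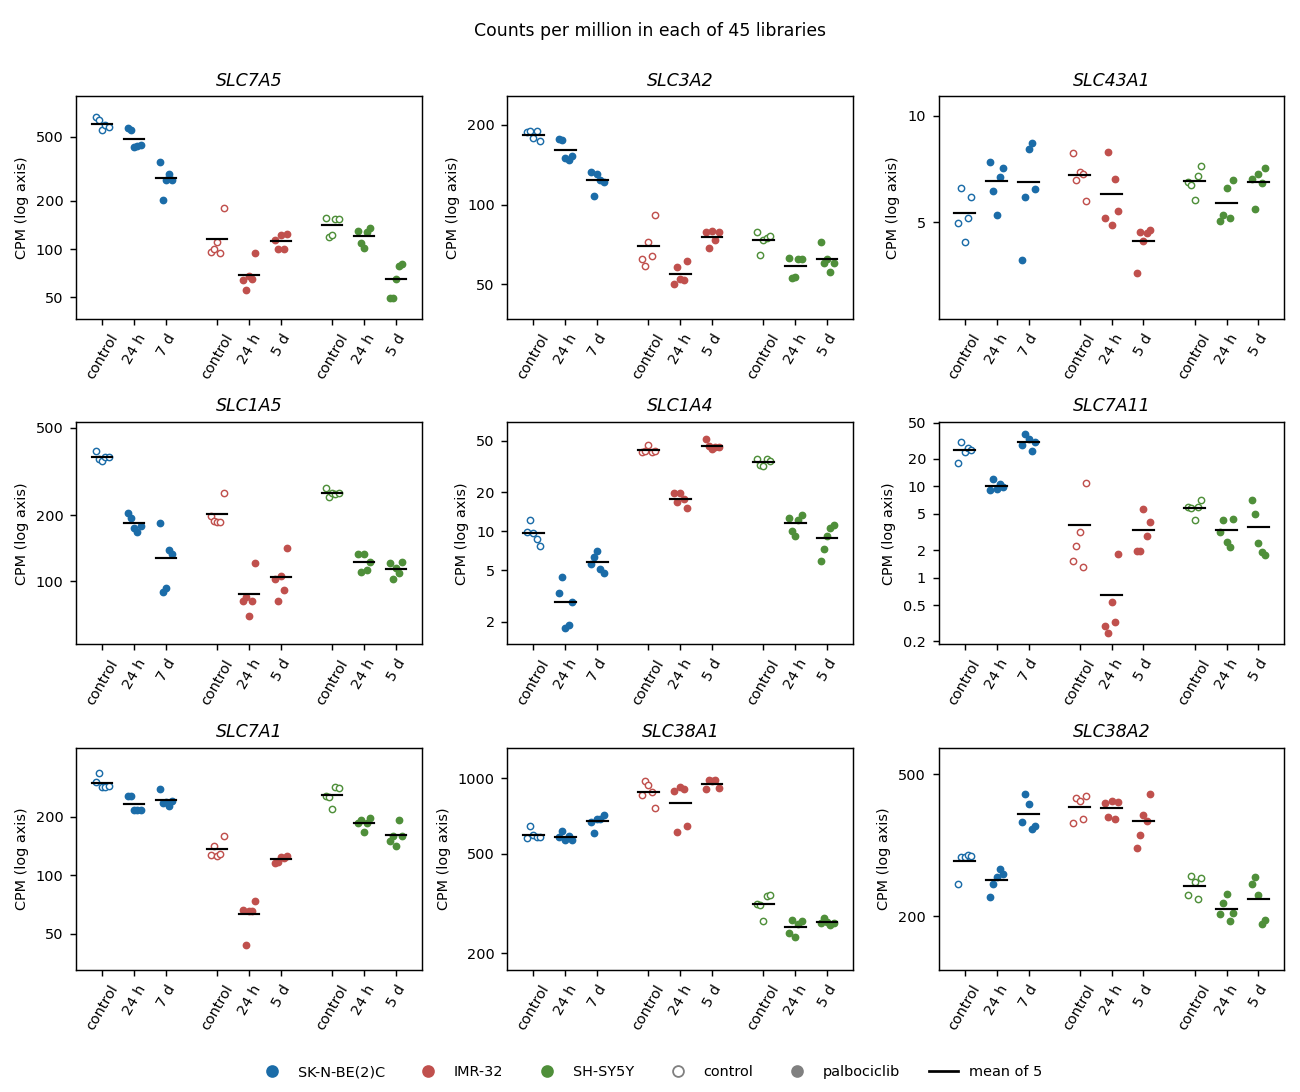
CPM (log axis) of each transporter gene in all 45 libraries, grouped by line and time, with open points for control, filled points for PB and black bars for the mean of 5. *SLC1A5* steps down at 24 h in each line and stays down, whereas the mean of *SLC7A11* dips at 24 h in each line and its libraries of the longer time overlap the controls in all 3.

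*SLC1A5* (chr19:47278140-47291851, minus strand), the glutamine exchanger ASCT2, was called lower after PB at both times in every line. For SK-N-BE(2)C the controls held 394, 359, 353, 368 and 368 CPM, the 24 h libraries 204, 193, 174, 168 and 178 CPM, and the 7 day libraries 185, 88.7, 93.5, 138 and 133 CPM. In IMR-32 they held 199, 188, 186, 187 and 252 CPM, then 81.5, 84.9, 69.4, 80.9 and 120.4 CPM, then 102, 81.4, 105, 91.3 and 142 CPM. In SH-SY5Y they held 267, 242, 253, 249 and 252 CPM, then 134, 110.3, 133, 112 and 122 CPM, then 120.3, 102, 115, 109 and 123 CPM. Treated and control libraries did not overlap in any line at either time. The 24 h changes were −1.04 ± 0.16, −1.17 ± 0.16 and −1.06 ± 0.06 in the same order of lines (adjusted p = 7.3e-05, 5.2e-05 and 4.9e-10), and the late changes −1.57 ± 0.16, −0.97 ± 0.16 and −1.22 ± 0.06 (3.9e-07, 1.8e-04 and 9.4e-11). From 24 h to 7 days it changed by a further −0.53 ± 0.16 in SK-N-BE(2)C (adjusted p = 0.0089, with overlapping libraries), a call that was lost at −0.49, −0.42 or −0.44 when 24 h replicate 1, 7 day replicate 2 or 7 day replicate 3 was left out. An annotated transcript on the opposite strand covers 780 exon bases of *SLC1A5* (23.4%), and the strand setting of the counting is unknown here.

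*SLC1A4* (chr2:65215611-65250999, plus strand), the exchanger of serine and alanine, fell at 24 h in every line, and its later course differed between lines. In IMR-32 the controls held 40.9, 41.8, 46.3, 41.2 and 41.8 CPM, the 24 h libraries 19.7, 16.9, 19.9, 17.7 and 15.1 CPM and the 5 day libraries 51.5, 45.5, 42.8, 44.6 and 44.4 CPM. Controls and 5 day libraries overlapped, and both lay wholly above 24 h, at −1.20 ± 0.08 for 24 h (adjusted p = 1.9e-08) and 0.10 ± 0.08 for 5 days (0.33). In SH-SY5Y the controls held 35.8, 32.3, 31.9, 36.3 and 34.9 CPM, the 24 h libraries 12.7, 10.1, 9.14, 12.2 and 13.4 CPM and the 5 day libraries 5.88, 7.31, 9.13, 10.5 and 11.2 CPM. Here the fall held, at −1.58 ± 0.14 (adjusted p = 7.2e-08) and −2.03 ± 0.15 (3.5e-09), the second being a level 4.07-fold below control. SK-N-BE(2)C, with the lowest level, went from 9.79, 12.2, 9.73, 8.77 and 7.68 CPM in controls to 3.35, 4.44, 1.81, 1.90 and 2.86 CPM at 24 h and 5.56, 6.32, 7.02, 5.10 and 4.74 CPM at 7 days. No 2 of these 3 groups overlapped, with −1.76 ± 0.22 at 24 h (adjusted p = 6.0e-06) and −0.79 ± 0.21 at 7 days (0.0028). The rise from 24 h was 1.30 ± 0.08 in IMR-32 (5.4e-08) and 0.97 ± 0.22 in SK-N-BE(2)C (0.0012).

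*SLC7A11* (chr4:139085251-139163503, minus strand), the cystine carrier of xCT, was called lower at 24 h in every line and then rose again in IMR-32 and SK-N-BE(2)C. The SK-N-BE(2)C controls held 17.8, 30.9, 23.6, 26.6 and 24.8 CPM, the 24 h libraries 9.14, 12.03, 9.29, 10.5 and 9.94 CPM and the 7 day libraries 28.6, 37.5, 33.2, 24.2 and 30.5 CPM. All 24 h libraries lay below all others, with −1.31 ± 0.14 at 24 h (adjusted p = 1.3e-06), 0.27 ± 0.13 at 7 days (0.076) and a rise of 1.58 ± 0.14 between them (1.4e-07). IMR-32 held few reads of the gene, 5 to 29 a library at 24 h. Its controls stood at 1.503, 2.20, 3.16, 1.30 and 10.7 CPM, its 24 h libraries at 0.293, 0.250, 0.545, 0.326 and 1.82 CPM and its 5 day libraries at 1.98, 1.96, 5.67, 2.85 and 4.03 CPM. Replicate 5 was the highest in the first 2 groups, and through it controls and 24 h overlapped, although each 24 h library lay below the control of its own number (log2 ratios of −1.99 to −3.14). The changes were −2.55 ± 0.68 at 24 h (adjusted p = 0.010), −0.20 ± 0.60 at 5 days (0.80) and 2.34 ± 0.69 between them (0.016), and without replicate 5 they were −2.43 ± 0.46 (5.4e-04), 0.62 ± 0.35 (0.13) and 3.05 ± 0.45 (5.0e-05). In SH-SY5Y the controls held 5.95, 5.84, 4.27, 5.87 and 7.03 CPM, the 24 h libraries 3.14, 4.31, 2.43, 2.19 and 4.35 CPM and the 5 day libraries 7.11, 4.97, 2.41, 1.90 and 1.75 CPM. Both treated groups overlapped the controls, and the 5 day libraries spanned the widest range, with −0.83 ± 0.32 at 24 h (adjusted p = 0.041) and −0.75 ± 0.32 at 5 days (0.047). Compared by replicate number, all 5 libraries were lower at 24 h (log2 ratios of −0.44 to −1.42) and 4 of 5 at 5 days (0.26 to −2.01), and with the number as a block the changes were −0.86 ± 0.28 (adjusted p = 0.019) and −0.82 ± 0.28 (0.018). Without the block both SH-SY5Y calls sat at the limit. The first was lost when any of 7 of the 10 libraries compared was left out, among them control replicate 5 (−0.75, adjusted p = 0.086) and 24 h replicate 4 (−0.71, 0.098), and the second likewise, among them 5 day replicates 3, 4 and 5 (−0.63, −0.59 and −0.59). With no filter on low counts neither was called (−0.85 and −0.75, adjusted p = 0.083 and 0.097), and the 5 day call was also lost with scaling by library size alone (−0.67, 0.078) and when only the 2 groups compared were fitted (−0.75, 0.067). The opposite-strand transcript *SLC7A11-AS1* covers 865 exon bases (8.97%).

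**Figure D4:**
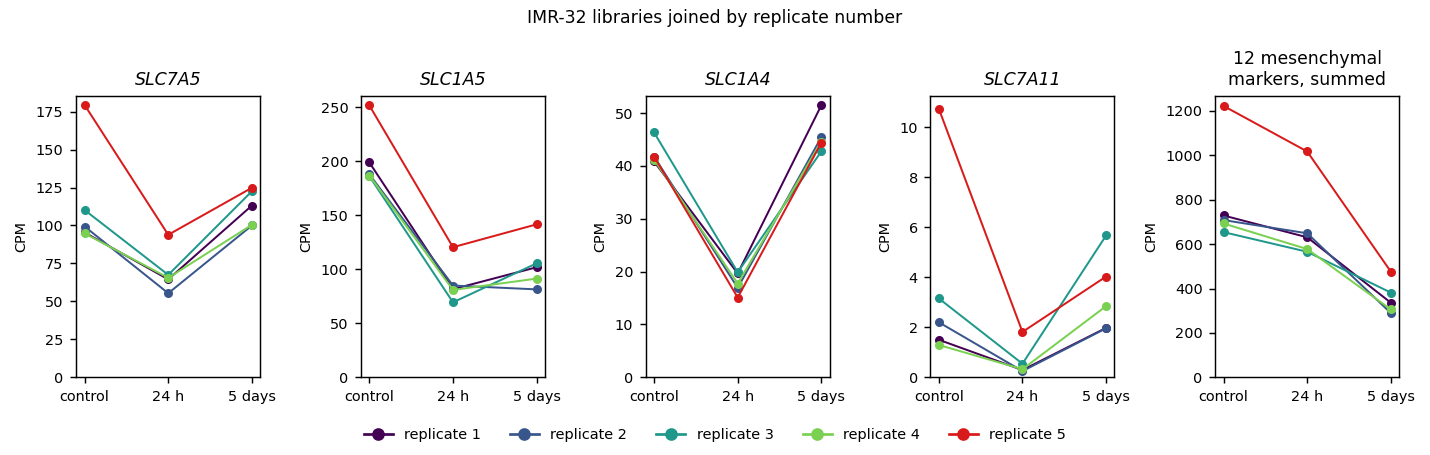
CPM of *SLC7A5*, *SLC1A5*, *SLC1A4* and *SLC7A11* and the summed CPM of 12 mesenchymal markers in IMR-32, with lines joining libraries of the same replicate number over control, 24 h and 5 days. Replicate 5 (red) is the highest control for *SLC7A5* (179 CPM), *SLC1A5* (252 CPM), *SLC7A11* (10.7 CPM) and the marker sum (1223 CPM), and every replicate goes down at 24 h in each of the 5 panels.

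*SLC7A1* (chr13:30083551-30169825, minus strand), the arginine and lysine importer, was called at 24 h in IMR-32 and at 5 days in SH-SY5Y. In IMR-32 the controls held 127, 142, 126, 128 and 159 CPM, the 24 h libraries 65.9, 43.8, 65.5, 65.2 and 73.2 CPM and the 5 day libraries 116, 117, 124, 123 and 125 CPM. The 24 h libraries stood clear of both other groups, with −1.08 ± 0.11 at 24 h (adjusted p = 1.1e-06) and a rise of 0.90 ± 0.11 to 5 days (1.6e-05), which left −0.18 ± 0.10 against control (0.15), with all 5 day libraries still just below all controls. In SH-SY5Y the controls held 256, 252, 218, 284 and 279 CPM, the 24 h libraries 187, 193, 166, 186 and 197 CPM and the 5 day libraries 149, 158, 141, 193 and 159 CPM. Both treated groups lay below every control, at −0.49 ± 0.08 for 24 h (adjusted p = 1.2e-04, just short of the fold limit and past it under several alternatives) and −0.76 ± 0.09 for 5 days (4.5e-07). SK-N-BE(2)C gave −0.40 ± 0.08 (adjusted p = 4.4e-04) and −0.34 ± 0.08 (8.6e-04), again without overlap but inside the fold limit, from 285 to 335 CPM in controls to 217 to 255 CPM and 226 to 278 CPM.

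*SLC38A1* (chr12:46576846-46663800, minus strand) and *SLC38A2* (chr12:46751971-46766556, minus strand), the sodium-coupled glutamine carriers, neighbour each other on chromosome 12 and were not called against control in any line at either time. *SLC38A2* in SK-N-BE(2)C held 246, 293, 293, 297 and 295 CPM in controls, 227, 247, 257, 271 and 262 CPM at 24 h and 368, 439, 414, 352 and 358 CPM at 7 days. The 7 day libraries lay above all others, at 0.39 ± 0.07 against control (adjusted p = 8.2e-05, under the fold limit) and 0.60 ± 0.07 against 24 h (2.3e-06, called). *SLC38A1* in the same line held 576 to 643, 566 to 617 and 603 to 713 CPM. In IMR-32 *SLC38A1* held 759 to 974 CPM in controls, 610.0 to 923 CPM at 24 h and 907 to 981 CPM at 5 days, where replicates 2 and 5 (610.0 and 648 CPM) were the low ones at 24 h, and *SLC38A2* gave 0.03 ± 0.09 and −0.15 ± 0.09 (adjusted p = 0.83 and 0.18). SH-SY5Y values were past the adjusted p but inside the fold limit at both times, at −0.32 ± 0.07 and −0.31 ± 0.07 for *SLC38A1* (adjusted p = 7.1e-04 and 5.4e-04) and −0.23 ± 0.08 and −0.19 ± 0.08 for *SLC38A2* (0.022 and 0.035), with overlapping libraries.

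The difference between lines in response was itself tested over all 45 libraries. At 24 h few responses differed: 1 of 9 between SK-N-BE(2)C and IMR-32 (4.49% of 16282 genes), 1 between IMR-32 and SH-SY5Y (3.07%) and 0 between SK-N-BE(2)C and SH-SY5Y (2.04%). That gene was *SLC7A1*, whose fall was deeper in IMR-32 than in SK-N-BE(2)C by 0.68 ± 0.13 log2 units (adjusted p = 5.9e-04) and deeper than in SH-SY5Y (−0.63 ± 0.13, 0.0023). For SK-N-BE(2)C against SH-SY5Y, edgeR gave 2 of the 9 genes an unadjusted p under 0.05, and DESeq2 called 0. *SLC1A5*, *SLC1A4* and *SLC7A11* fell in all lines with differences between lines that did not pass, the widest being −1.74 ± 0.66 for *SLC7A11* in IMR-32 against SH-SY5Y (adjusted p = 0.14), which became −1.62 ± 0.47 and passed (0.023) with the replicate number as a block.

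At the longer time 6 of 9 responses differed between SK-N-BE(2)C and IMR-32 (23.9% of genes), 4 between IMR-32 and SH-SY5Y (20.8%) and 2 between SK-N-BE(2)C and SH-SY5Y (21.2%). *SLC1A4* was the gene called in all 3 contrasts, with IMR-32 above SH-SY5Y by 2.07 ± 0.21 (adjusted p = 1.1e-09), SK-N-BE(2)C above SH-SY5Y by 1.21 ± 0.22 (5.1e-05) and below IMR-32 by −0.86 ± 0.22 (0.0020). The late *SLC7A5* response of IMR-32 differed from that of SK-N-BE(2)C (SK-N-BE(2)C minus IMR-32, −1.08 ± 0.22, 2.0e-04) and of SH-SY5Y (IMR-32 minus SH-SY5Y, 1.07 ± 0.22, 3.0e-04), while the other two lines gave −0.01 ± 0.22 (0.9999). *SLC3A2* differed between IMR-32 and SK-N-BE(2)C (SK-N-BE(2)C minus IMR-32, −0.70 ± 0.13, 3.7e-05), and *SLC38A2* in SK-N-BE(2)C differed from IMR-32 (0.57 ± 0.12, 1.8e-04) and SH-SY5Y (0.56 ± 0.12, 2.8e-04), the last falling just under the fold limit (0.495) and losing its call without SH-SY5Y replicate 5. *SLC43A1* in IMR-32 differed from SK-N-BE(2)C (0.90 ± 0.21 for SK-N-BE(2)C minus IMR-32, 9.3e-04) and SH-SY5Y (−0.61 ± 0.21, 0.024), *SLC1A5* between IMR-32 and SK-N-BE(2)C (SK-N-BE(2)C minus IMR-32, −0.58 ± 0.20, 0.022) and *SLC7A1* between IMR-32 and SH-SY5Y (0.52 ± 0.13, 0.0022). Adjusted p-values are given in each parenthesis. The *SLC7A1* value fell under the fold limit without any of IMR-32 replicates 3 and 4 and SH-SY5Y replicates 1 and 5 (0.48 to 0.50), and the calls of *SLC1A5* and *SLC43A1* were lost without SK-N-BE(2)C replicate 2 or 3 (−0.47 and −0.50) and without IMR-32 replicate 1 or SH-SY5Y replicate 3 (−0.49 and −0.56). Without IMR-32 replicate 5, *SLC7A11* was called in IMR-32 against SH-SY5Y (1.321, against 0.51 ± 0.58 with it) and in SK-N-BE(2)C against SH-SY5Y (0.99 ± 0.37, against 0.99 ± 0.54), and the latter was also called with the replicate block (1.07 ± 0.33, adjusted p = 0.012).

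The 9 genes were set beside lists of related genes, chosen with earlier results of these data known. Of 41 other amino acid carriers of the plasma membrane and lysosome, 38 were in the tables and 19, 23 and 19 had enough reads to be tested in the 3 lines, with SK-N-BE(2)C first, IMR-32 second and SH-SY5Y last, an order kept for every set of 3 values that follows. Counts of each list are read against the shares of all genes tested, which at the longer time were 24.5%, 16.6% and 18.6% called higher and 22.3%, 15.5% and 17.3% called lower, with medians of 0.01, 0.00 and 0.01 log2 units. At 24 h 3, 2 and 3 of the other carriers were called higher (15.8%, 8.70% and 15.8% of those tested, against 10.9%, 7.87% and 10.5% of all genes) and 1, 3 and 1 lower (5.26%, 13.0% and 5.26%, against 10.6%, 10.5% and 11%). At the longer time 8, 3 and 6 were called higher (42.1%, 13.0% and 31.6%) and 3, 5 and 2 lower (15.8%, 21.7% and 10.5%), with medians of 0.36, 0.06 and 0.27 log2 units. The share called higher was therefore above that of all genes in SK-N-BE(2)C and SH-SY5Y and below it in IMR-32. *SLC43A2* (LAT4), a paralogue of *SLC43A1*, rose in every line, by 1.41 ± 0.08, 0.84 ± 0.15 and 1.41 ± 0.07 at 24 h (adjusted p = 2.1e-09, 5.4e-04 and 7.5e-11) and by 1.15 ± 0.08, 0.99 ± 0.15 and 0.99 ± 0.07 later. *SLC16A10* (TAT1, aromatic amino acids) and *SLC36A4* fell late in every line, with log2 fold changes of −1.42 ± 0.31, −0.81 ± 0.12 and −0.82 ± 0.18 for the first and −0.88 ± 0.11, −0.57 ± 0.09 and −0.53 ± 0.05 for the second. Of 11 mitochondrial carriers 9 were tested, with 2, 2 and 1 called higher late (22.2%, 22.2% and 11.1%) and 4, 1 and 3 lower (44.4%, 11.1% and 33.3%), on either side of the shares of all genes. *SFXN3*, a serine carrier of mitochondria, rose by 1.09 ± 0.06, 1.21 ± 0.30 and 0.69 ± 0.08, and *SLC25A15*, the ornithine carrier, fell (−1.54 ± 0.08, −0.62 ± 0.08 and −0.81 ± 0.08).

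Among 22 genes of the amino acid response and of serine and proline synthesis, 21, 20 and 21 were tested, of which 5, 4 and 2 were called higher at the longer time (23.8%, 20% and 9.52%) and 6, 6 and 6 lower (28.6%, 30% and 28.6%, where all genes gave 22.3%, 15.5% and 17.3%), with medians of 0.06, −0.18 and −0.34. Those that fell in all lines included *PHGDH*, the first enzyme of serine synthesis, at −1.46 ± 0.12, −0.92 ± 0.14 and −1.54 ± 0.14, and the folate enzymes *MTHFD2* (−0.66 ± 0.06, −0.61 ± 0.10 and −1.16 ± 0.13) and *SHMT2* (−0.55 ± 0.09, −0.72 ± 0.12 and −1.003 ± 0.09). *PHGDH* was also lower at 24 h, at −1.08 ± 0.12, −1.61 ± 0.14 and −1.31 ± 0.14. Of 15 genes of glutathione synthesis and NRF2, 15, 14 and 15 were tested and 6, 2 and 4 were called lower late (40%, 14.3% and 26.7%, the second below the 15.5% of all genes in that line) and 0 higher in each line. Among them *NQO1*, a quinone reductase, fell (−2.22 ± 0.18, −1.61 ± 0.27 and −1.21 ± 0.18), as did *GSR*, which regenerates glutathione (−1.35 ± 0.09, −0.70 ± 0.08 and −0.58 ± 0.06). Of the 39 genes that sense amino acids for mTORC1, 38 were tested, with 10, 5 and 8 called higher late (26.3%, 13.2% and 21.1%, near the 24.5%, 16.6% and 18.6% of all genes) and 3, 1 and 3 lower (7.89%, 2.63% and 7.89%, below all genes). *RRAGB*, a Rag GTPase, rose by 1.06 ± 0.10, 1.12 ± 0.10 and 0.66 ± 0.10, and *SEH1L*, of the GATOR complex, fell (−1.30 ± 0.14, −0.83 ± 0.16 and −0.63 ± 0.06). Of 11 genes that use glutamine or branched-chain amino acids, 10, 11 and 11 were tested, with 1, 0 and 2 called higher late (10%, 0% and 18.2%) and 2, 1 and 1 lower (20%, 9.09% and 9.09%). None of these was above the share of all genes, and the 18.2% and 20% were near theirs (18.6% and 22.3%).

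**Figure D5:**
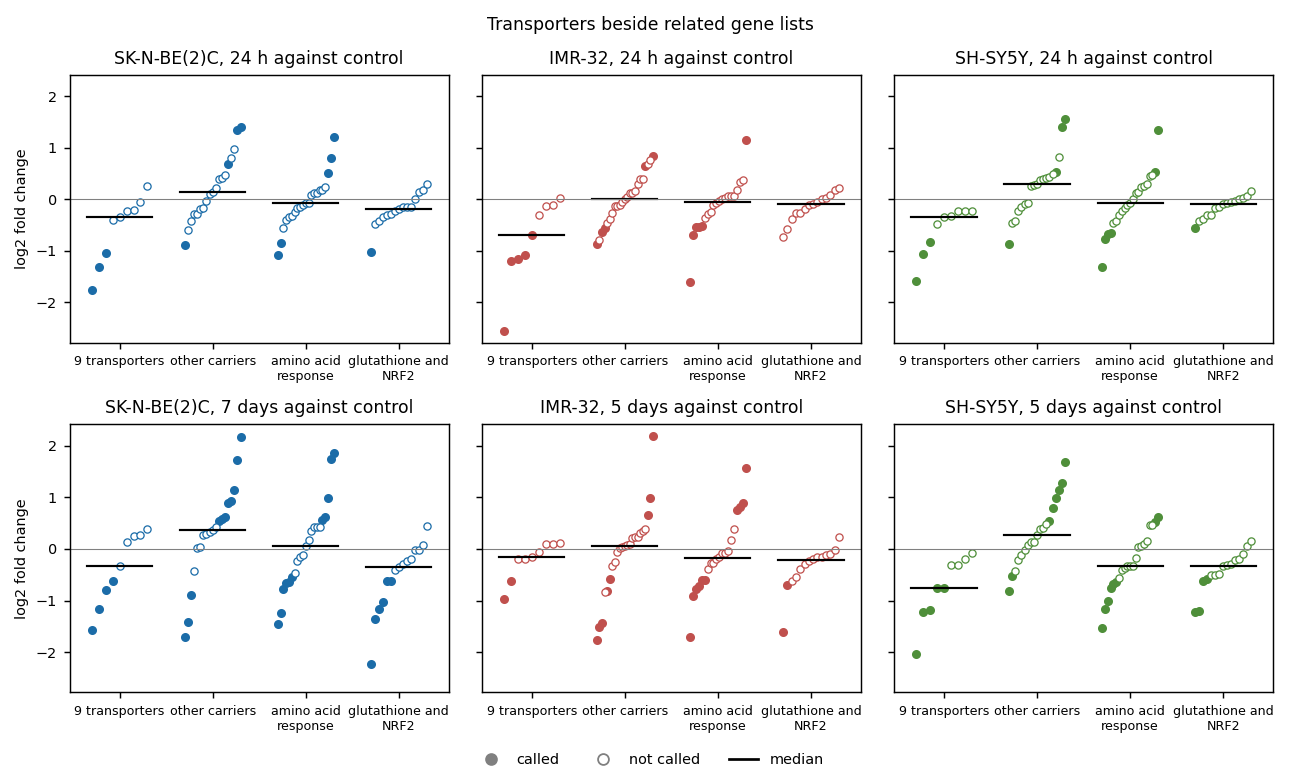
Log2 fold change (y axis) of the 9 transporters and of the tested genes of 3 related lists, per line (columns) at 24 h (top) and the longer time (bottom), with filled points for called genes and black bars for medians. The transporters have no filled point above 0 in any panel, whereas the other carriers have filled points on both sides at the longer time.

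Markers of other cell types moved with PB too. Of 12 mesenchymal markers found, 10, 6 and 12 were tested and 7, 5 and 7 were called lower at the longer time (70%, 83.3% and 58.3%, against 22.3%, 15.5% and 17.3% of all genes), with 2, 0 and 1 higher (20%, 0% and 8.33%, against 24.5%, 16.6% and 18.6%). Their summed level in SK-N-BE(2)C ranged over 631 to 858 CPM in controls, 543 to 775 CPM at 24 h and 405 to 713 CPM late. The IMR-32 ranges were 654 to 1223, 566 to 1018 and 290 to 476 CPM, and those of SH-SY5Y were 1927 to 2613, 1615 to 2358 and 1458 to 1598 CPM, with no overlap of late libraries and controls in either line. *COL1A2* was at 0 in every SK-N-BE(2)C control. The 11 adrenergic markers summed to 3844 to 4397 CPM in controls, 5597 to 5765 CPM at 24 h and 5323 to 5890 CPM late in SK-N-BE(2)C. The IMR-32 sums were 2358 to 3696, 3571 to 4623 and 3413 to 4362 CPM, and those of SH-SY5Y were 5427 to 6880, 7787 to 9892 and 6233 to 8092 CPM, the late libraries of both overlapping their controls. Schwann markers (4 found) were low but moved too, from 14.9 to 20.5 CPM summed in SK-N-BE(2)C controls to 21.4 to 26.4 CPM at 24 h, without overlap, and 15.4 to 25.3 CPM late, with overlap. In IMR-32 the sums were 1.26 to 3.37, 3.13 to 3.69 and 5.33 to 9.26 CPM and in SH-SY5Y 3.23 to 5.10, 4.71 to 6.94 and 5.92 to 13.5 CPM, the late libraries of both lying above all their controls. The part of these shifts in the transporter values was not tested.

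Likeness of pattern was measured as the root mean square difference between 2 genes of their 9 group means of log2 CPM, each centred within its line, over 12339 genes. *SLC1A5* lay closest to *MCMBP*, a binder of the MCM helicase (0.0706), *RANBP1* (0.0799) and *DBF4*, which activates the kinase that starts DNA replication (0.0985), against its own amplitude of 0.569. *SLC7A5* lay closest to *PDK1* (0.139), *CNTN4* (0.144) and *PDE4B* (0.147), at an amplitude of 0.442, and *SLC3A2* to *STARD9* (0.0448), *CEP131* (0.0534) and *IMMP1L* (0.0600), at 0.195. *SLC1A4* (amplitude 0.7098) and *SLC7A11* (0.643) had no neighbour nearer than 0.239 and 0.235. Nearest to *SLC7A1* was *ZNF724* (0.0831), to *SLC43A1* *SLC40A1* (0.0575), to *SLC38A1* *FCHSD2* (0.0316) and to *SLC38A2* *KANSL1L* (0.0377). Within the 9, *SLC38A1* and *SLC38A2* stood at 0.141, a distance about as large as their own amplitudes (0.114 and 0.161), and *SLC3A2* stood at 0.309 from *SLC7A5*, more than its amplitude of 0.195. *SLC1A4* and *SLC7A11* stood at 0.388 from each other.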

How the data were processed

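RNA-seq measured polyadenylated RNA in 45 libraries (directional kit, paired ends). Per the labels and the study's methods, the authors trimmed reads with Trim Galore 0.6.4, aligned them to hg19 with STAR (2.6.1d in the submitters' processing notes, an earlier release in the study's own list of software) and deposited STAR's whole-number counts per gene, which were used here. The strand setting of the counting is unknown here (not given in the sources used). Deposited CPM tables and the authors' DESeq2 1.32.0 fold change and p-value columns were not used. Groups came from the labels. Genes passing filterByExpr (minimum count 10, total 15, proportion 0.7) were tested within each line by edgeR 4.0.16 (quasi-likelihood, TMM, robust; limma 3.58.1, R 4.3.3), with all 15 libraries of the line sharing one estimate of spread, and over all 45 libraries for untreated levels and differences between lines. SE was the absolute log2 fold change over the root of F. CPM used library totals without TMM. The biological coefficient of variation was 11.2% for SH-SY5Y, 19.8% for IMR-32 and 13.8% for SK-N-BE(2)C. Length was that of the canonical GENCODE v44 transcript on GRCh37.

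The genes and lists were chosen with earlier results of these data known. All 9 genes were named, and of each other list up to 3 risen and 3 fallen genes with the largest mean change, among those called the same way in all lines at the longer time with no overlap of libraries. Likeness used a pseudocount of 0.5 and genes averaging at least 1 CPM. *SLC1A6*, *SLC7A13*, *SLC36A2*, *PRRX1* and *SOX10* were not analysed here. The labels number the replicates without saying what a number shares. Deviations of same-numbered libraries from their group means correlated at 0.109 or more in every pair of groups of IMR-32 and SH-SY5Y and in SK-N-BE(2)C at 0.243 or more between 24 h and control, but as low as 0.0966 and 0.0482 for the 7 day pairs of SK-N-BE(2)C. The reported fits have no replicate term, and the replicate block is an alternative. The models were also run on simulated counts, with the same spread for every gene and no effect of replicate number. That setting is simpler than these data and does not bear on genes with few reads. Alternatives were DESeq2 1.42.0, other scalings, no filter, no fold limit, the compared groups alone, the replicate block and each library left out. In the fits over all 45 libraries, each replicate of a line was left out instead, with its libraries of all groups. Leaving out IMR-32 replicate 5 from all groups in the fit of that line alone was chosen after seeing the data.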

Additional observations from a re-analysis of the deposited data

Results flagged for a closer look

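In all, 8 values of a gene in a library stood far from the other 4 of their group, with a gap over 0.71 of the range. They were among 81 sets tested, each a gene in a group, of which chance would give about 4.05 if the sets were independent. The sets share libraries, and IMR-32 control replicate 5 gave several of the 8. IMR-32 control replicate 5 was high for *SLC7A5* (179 CPM, next 110.2), *SLC1A5* (252 CPM, next 199) and *SLC7A11* (10.7 CPM, next 3.16), and 24 h replicate 5 was high for *SLC7A11* (1.82 CPM, next 0.545). The same control library held 791 CPM of the mesenchymal marker *VIM* against 316 to 361 CPM in the other controls, and 28.2 CPM of *SNAI2* against at most 1.03 CPM. Whether the marker levels have a part in the transporter levels was not tested. IMR-32 control replicate 3 was high for *SLC1A4* (46.3 CPM, next 41.8), and IMR-32 24 h replicate 2 was low for *SLC7A1* (43.8 CPM, next 65.2). SK-N-BE(2)C control replicate 2 was high for *SLC38A1* (643 CPM, next 595) and control replicate 1 low for *SLC38A2* (246 CPM, next 293).

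In 14 cases the PB response differed between lines by edgeR's test of the difference with Benjamini-Hochberg adjustment. After 24 h this was *SLC7A1* in SK-N-BE(2)C minus IMR-32 (0.68) and in IMR-32 minus SH-SY5Y (−0.63). After the longer treatment, SK-N-BE(2)C minus IMR-32 gave −1.08 for *SLC7A5*, −0.70 for *SLC3A2*, 0.90 for *SLC43A1*, −0.58 for *SLC1A5*, −0.86 for *SLC1A4* and 0.57 for *SLC38A2*. SK-N-BE(2)C minus SH-SY5Y gave 1.21 for *SLC1A4* and 0.56 for *SLC38A2*. IMR-32 minus SH-SY5Y gave 1.07 for *SLC7A5*, −0.61 for *SLC43A1*, 2.07 for *SLC1A4* and 0.52 for *SLC7A1*. For the late differences with SK-N-BE(2)C (7 against 5 days), line and length of treatment cannot be told apart.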

How the results depend on the processing

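No called value of the 9 genes changed direction under any alternative run, though some values near 0 that were not called changed sign. Over the 9 genes, the call was kept in 898 of 945 values under the other settings (4 lost, all *SLC7A11* in SH-SY5Y, and 43 gained) and in 2389 of 2457 with a library or a whole replicate left out (31 lost, 37 gained). Whole replicates of a line were left out for untreated lines and for differences between lines. Without the fold limit, genes called were 6577, 9993 and 8335 in SK-N-BE(2)C (24 h, late, late against 24 h), 4738, 7296 and 4914 for IMR-32 and 7154, 9516 and 6331 for SH-SY5Y, and 1122 and 510 for the 24 h differences of SK-N-BE(2)C from IMR-32 and SH-SY5Y. Of the 9 transporters it called 7 at 24 h and 7 late for SK-N-BE(2)C, 7, 8 and 4 for SH-SY5Y, and 5 for the late difference of SK-N-BE(2)C and SH-SY5Y. With the replicate number as a block, the 24 h differences counted 1121 (SK-N-BE(2)C and IMR-32), 670 (SK-N-BE(2)C and SH-SY5Y) and 926 genes (IMR-32 and SH-SY5Y), with 2 transporters in the last. The block changed 2 calls of the 9 genes, *SLC7A11* at 24 h in IMR-32 minus SH-SY5Y (−1.62) and late in SK-N-BE(2)C minus SH-SY5Y (1.07), and no other. The causes were not tested. With each library or whole replicate left out in this way, transporters called ranged from 3 to 3, 4 to 4 and 4 to 5 in SK-N-BE(2)C, 4 to 5, 2 to 2 and 4 to 5 in IMR-32, 2 to 4, 4 to 5 and 1 to 2 in SH-SY5Y, 6 to 8, 6 to 6 and 3 to 4 for untreated lines, 1 to 1, 0 to 0 and 1 to 1 for 24 h differences and 5 to 6, 1 to 3 and 3 to 5 for late ones. Genes called ranged from 2841 to 3133, 6361 to 7021 and 4097 to 4977 in SK-N-BE(2)C, 2230 to 3126, 4199 to 5040 and 2387 to 3518 in IMR-32, 2931 to 3170, 4941 to 5580 and 2227 to 2755 in SH-SY5Y, 10042 to 10385, 9265 to 9553 and 8728 to 9009 for untreated lines, 553 to 994, 216 to 542 and 321 to 708 for 24 h differences and 3304 to 4413, 2996 to 3838 and 2813 to 3943 for late ones. *SLC7A1* in SH-SY5Y at 24 h (−0.49) passed the fold limit with DESeq2, its size factors, no filter and the compared groups alone (−0.50 to −0.51) and with any of 6 libraries left out (−0.51 to −0.54), and *SLC43A1* in IMR-32 between 24 h and 5 days (−0.50) passed it with no filter (−0.51), with any of 10 libraries left out (−0.50 to −0.57) and without replicate 5 in all groups (−0.57). *SLC38A1* in untreated SK-N-BE(2)C against IMR-32 fell just under the limit without IMR-32 replicate 2 (−0.496) and lost its call. Scaling by library size alone moved the median of all genes in untreated SK-N-BE(2)C and IMR-32 against SH-SY5Y by −0.19 and −0.18. The 4 lost calls of *SLC7A11* in SH-SY5Y were the 24 h one with no filter (−0.85, adjusted p = 0.083) and the 5 day one with no filter (−0.75, 0.097), library size only (−0.67, 0.078) and the compared groups alone (−0.75, 0.067). *SLC7A11* rests on 5 to 29 counts a library in IMR-32 at 24 h.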

Other observations

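Ratios of related carriers per kilobase gave a further view of the same libraries. *SLC1A5* per kb was 62.1 ± 10.8 times *SLC1A4* in SK-N-BE(2)C controls (SD, n = 5), 111 ± 34.3 times at 24 h and 36.7 ± 14.2 times at 7 days, and the control and 7 day ranges overlapped (46.8 to 75.8 and 21.1 to 52.7). In IMR-32 the ratio was 7.58 ± 1.19, 7.98 ± 2.75 and 3.63 ± 0.882, each 5 day library lying below each control. In SH-SY5Y it was 11.7 ± 0.622, 17.2 ± 3.49 and 21.6 ± 6.43, each 5 day library lying above each control. *SLC38A1* to *SLC38A2*, the neighbouring glutamine carriers, went from 1.24 ± 0.0967 in controls to 1.04 ± 0.149 at 7 days in SK-N-BE(2)C (SD, n = 5), from 1.29 ± 0.149 to 1.55 ± 0.200 at 5 days in IMR-32, and SH-SY5Y went from 0.772 ± 0.0995 to 0.715 ± 0.0859. The control and late ranges of that ratio overlapped in all 3 lines. These ratios were not tested.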
